A study of Mus musculus with 5 samples.

Results

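The skin of a newborn mouse already carries a working water barrier, whereas the colon is lined by a simple epithelium that forms none. The genes described here encode the cornified envelope and the epidermal barrier. They were chosen by symbol, taking every gene whose symbol begins with Lce or Sprr and 25 further named genes of envelope, junction, protease and lipid function (loricrin under its symbol Lor). Of these, 41 genes were measured, out of 12393 named genes in the series. They had 49 probe sets out of 22626, and where a gene had several, the brightest on average over the arrays stood for it. Cnfn, Dsg1a, Klk5 and Sbsn of the chosen symbols had no probe set under their name in the annotation used here.

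Total RNA was pooled from several whole C57BL/6 pups aged 1 day and, separately, from the colons of several adult C57BL/6 mice aged 8 weeks. The 2 pools were combined so that colon supplied 0%, 25%, 50%, 75% or 100% of the RNA, and 10 ng of each mix was amplified in a T7 double round and hybridised to 1 Affymetrix array, with no replicate of any mix. Every mixture holds the same 2 pools, so a p-value here measures technical spread and bend along the dilution, not the spread between mice. The pools differ in tissue and in age at once, so the effects of these cannot be told apart, and in these bulk samples fewer keratinocytes and less RNA per keratinocyte cannot be told apart either.

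The cornified envelope is a shell of cross-linked protein laid down under the membrane of the dying keratinocyte. Envoplakin, periplakin and involucrin form its scaffold, loricrin, the small proline-rich proteins (Sprr) and the late cornified envelope proteins (Lce) fill it, and transglutaminases join them through isopeptide bonds. Lipoxygenases prepare the ceramides bound to its outer face, corneodesmosomes hold the dead cells together, and kallikreins release them at the surface. Many of the structural genes lie side by side on mouse chromosome 3 in the epidermal differentiation complex.

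Promoters of 32 of the 41 genes were listed in RefSeq (GRCm38.p6), and the 250 bases before the start were searched on both strands for the AP-1 letters TGANTCA and the TATA box letters TATAAA. Those without an entry were Lce1f, Sprr2j-ps, Evpl, Ppl, Dsc1, Dsc3, Pkp1, Aloxe3 and Calml3. All 8 Sprr promoters held TATAAA and 7 held TGANTCA, against 13.0% and 6.87% of the 27025 promoters in the table, 1 per gene. Among the 10 Lce promoters 1 held TATAAA and none held TGANTCA. Over the 32 genes the counts were 16 for TATAAA and 13 for TGANTCA. The KLF letters CACCC were in 16 of the 32 promoters and in 51.3% of all, and the E-box letters CACGTG in 1 of the 32 and 6.05% of all.

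The sequences below are shown because exact TATAAA and TGANTCA matches were found in most Sprr but few or no Lce promoters. Lce1d holds the only TATAAA among the Lce promoters. Lce1h and Lce1i hold aataaa at the same place, which the exact search does not count. Sprr2d and Sprr2k, of like layout, are shown because they had slopes of opposite sign. Each runs 5′ to 3′ on the strand of its gene and ends at the base before the start, with TATAAA and TGANTCA in capitals. Lor is chr3:92083143-92083262 and Lce1d chr3:92687211-92687330, both on the minus strand. Lce1h is chr3:92765066-92765185 and Lce1i chr3:92778900-92779019, also minus. Sprr1a is chr3:92485882-92486081 on the minus strand. Sprr2d is chr3:92338940-92339139 and Sprr2k chr3:92432382-92432581, both plus.
Lor: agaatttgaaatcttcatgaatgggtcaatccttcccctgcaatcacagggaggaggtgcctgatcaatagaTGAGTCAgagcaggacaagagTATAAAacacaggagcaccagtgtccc
Lce1d: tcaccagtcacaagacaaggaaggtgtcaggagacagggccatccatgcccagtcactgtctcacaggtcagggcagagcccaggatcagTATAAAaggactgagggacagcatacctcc
Lce1h: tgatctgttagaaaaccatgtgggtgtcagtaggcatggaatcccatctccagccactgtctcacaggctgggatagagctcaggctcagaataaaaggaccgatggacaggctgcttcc
Lce1i: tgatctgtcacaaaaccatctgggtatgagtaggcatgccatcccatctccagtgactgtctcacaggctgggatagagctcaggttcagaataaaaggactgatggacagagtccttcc
Sprr1a: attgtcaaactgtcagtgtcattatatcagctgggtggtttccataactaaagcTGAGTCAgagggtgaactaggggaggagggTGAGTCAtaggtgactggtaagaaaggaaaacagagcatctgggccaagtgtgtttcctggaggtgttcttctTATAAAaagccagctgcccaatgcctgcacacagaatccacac
Sprr2d: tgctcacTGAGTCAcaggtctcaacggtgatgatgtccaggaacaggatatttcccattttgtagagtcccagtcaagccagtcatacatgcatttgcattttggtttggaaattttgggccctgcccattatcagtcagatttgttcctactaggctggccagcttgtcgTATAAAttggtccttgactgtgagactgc
Sprr2k: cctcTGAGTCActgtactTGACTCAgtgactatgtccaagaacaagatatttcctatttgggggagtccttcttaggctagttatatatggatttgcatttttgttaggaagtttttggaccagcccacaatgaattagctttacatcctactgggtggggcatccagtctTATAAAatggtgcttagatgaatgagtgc

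In each of the 5 Sprr2 promoters (Sprr2d, Sprr2f, Sprr2h, Sprr2i and Sprr2k) the TATA box began at position −29, counted back from the start, and a TGANTCA match lay between positions −198 and −182. The Lor promoter held both motifs closer in, at −27 and −48. Lce1h and Lce1i matched at 88.3% of the 120 positions printed without a gap, the highest share among the Lce pairs compared, and equal to that of Lce1g and Lce1h. These matches describe letters only and were not tested as binding sites.

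Median log2 signals of the arrays ranged from 6.83 to 6.92. Signals in the table run from 2.48 to 14.75 on the log2 scale, and values on the arrays are given below in order of rising colon share, from whole mouse to colon. Marker genes of the labelled tissues differed accordingly: 10 of 11 measured colon epithelium genes were at least 2-fold higher in colon, and 9 of 10 genes of basal and suprabasal epidermis were at least 2-fold lower. The summed linear signal of those 10 epidermal genes in the mixtures was 86.5%, 65.4% and 38.1% of whole mouse, and 3.32% in colon. For 7 keratins of the squamous lining of mouth, oesophagus and anal canal the share in colon was 7.11%, and for 10 hair follicle genes 36.7%. The remaining epidermal gene, Itgb4, was higher in colon, at 8.94 against 7.69 in whole mouse. Epidermal and squamous markers other than Itgb4 thus moved with most of the genes below, and their part in each result was not tested.

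Along the dilution, 23 of the 41 barrier genes fell and 2 rose. "Fell" and "rose" refer to a limma regression of log2 signal on the colon share, with Benjamini-Hochberg adjustment over all 22626 probe sets and a threshold of 0.05. The slope is the change in log2 signal fitted from undiluted whole mouse to undiluted colon. The falling genes made up 56.1% of the barrier genes, where 14.5% of all 12393 genes fell, and rises were 9.80% of all genes. Counted over probe sets in place of genes, 10.9% fell and 8.63% rose, and 24.3% of genes and 19.5% of probe sets passed in either direction. With arrays centred on their medians, the split over all genes went from 1797 falls and 1215 rises to 1703 and 1933, and among barrier genes from 23 and 2 to 26 and 2. The median slope was −2.003 among barrier genes and −0.01 over all genes. All 5 signals were in strictly falling order in 24 barrier genes, against 12.1% of all genes, and 27 were at least 2-fold lower in colon, against 10.4%. A strictly rising order was seen in 2 barrier genes (8.66% of all genes), and the same number were at least 2-fold higher in colon (9.26% of all genes).

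**Figure D1:**
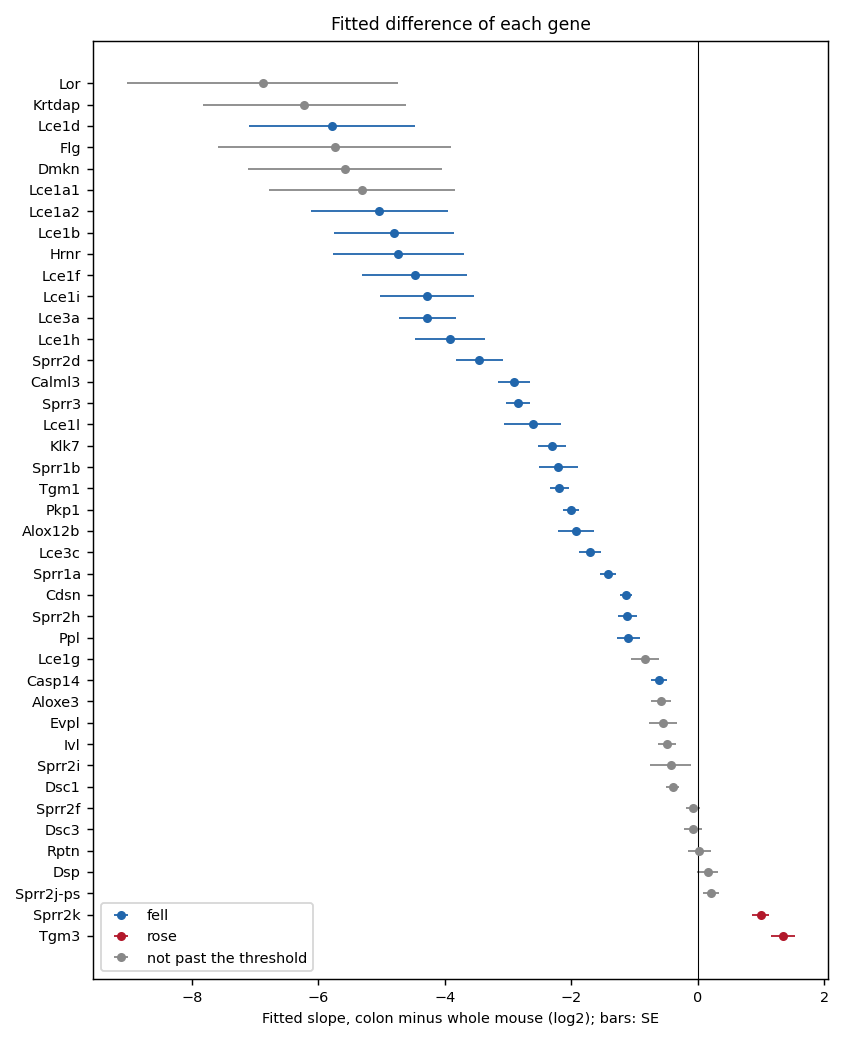
Fitted slope of each of the 41 genes (horizontal axis, log2, colon minus whole mouse), with bars for its standard error, ordered from the most negative. Blue genes fell (23), red genes rose (2) and grey genes did not pass the threshold (16). Lor, Krtdap, Flg, Dmkn and Lce1a1 have strongly negative slopes with the widest bars and are grey.

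The number of falling barrier genes depended on the arrays fitted. Leaving out whole mouse gave 10 falls and leaving out colon gave 16. With the 25% mixture dropped 15 genes fell, and with either the 50% or the 75% mixture dropped 13 did. Over all 22626 probe sets, falls went from 2456 to 1003 without whole mouse and to 829 without colon. They were 1692, 1428 and 1143 without the 25%, 50% and 75% mixtures. Sprr3, Klk7, Tgm1, Cdsn and Pkp1 fell in each of those 5 fits, and Lce1l, Hrnr and Casp14 fell in none of them. Lce1a2, Lce1b, Lce1d and Lce1f fell only in the fit without the colon array, and Ppl only in that without the 25% mixture. Conversely, Lce1a1, Dmkn and Krtdap, which did not pass over the 5 arrays, passed in the fit without the colon array. Neither rise passed when whole mouse or the 75% mixture was dropped, and of the 2 only Tgm3 passed with colon dropped.

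Nearly all late cornified envelope genes declined along the dilution. Lce proteins are small, cysteine-rich proteins of the outermost envelope. Of 11 measured, 9 fell and none rose, with a median slope of −4.28. The signals of Lce1d were 11.55, 10.96, 10.30, 9.36 and 5.12. Its slope was −5.78 (SE 1.31, adjusted p = 0.0417). Lce1h gave 12.55, 11.77, 11.31, 10.44 and 8.32 on the arrays. The signals of Lce1d and Lce1h stepped down at every mixture, and the step from the 75% mixture to colon was larger than any before it. Lce1h fell by 3.91 log2 (SE 0.55, adjusted p = 0.0145), and among the 5 fits that each leave out 1 array it passed in all but that without whole mouse.

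The remaining Lce1 genes had negative slopes too, from −5.31 in Lce1a1 to −0.83 in Lce1g. Lce1a2 (slope −5.04, adjusted p = 0.0369), Lce1b (slope −4.80, adjusted p = 0.0306), Lce1f (slope −4.47, adjusted p = 0.0264) and Lce1i (slope −4.28, adjusted p = 0.0227) fell, as did Lce1l, whose signals went from 6.46 to 3.71 (slope −2.61, adjusted p = 0.0229). Without the colon array the slopes of Lce1a2, Lce1b, Lce1d, Lce1f and Lce1i were between −2.89 and −2.65, and that of Lce1l was −1.67. Lce1a1 had signals of 12.65, 12.31, 11.83, 11.08 and 6.62. This ordered decline was as deep as that of its neighbours, yet it did not pass (−5.31, SE 1.46, adjusted p = 0.0646). Lce1g stayed between 5.91 and 6.70 (adjusted p = 0.0616). The lower probe set of Lce1f had a slope of −1.39, against −4.47 in the brighter one, so the size of its fall depended on the probe set.

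Lce3 genes, which in human skin are induced on barrier damage, fell as well. The signals of Lce3a were 10.68, 9.60, 8.83, 8.15 and 6.06. Its slope was −4.28 (SE 0.45, adjusted p = 0.00778), and its drop of 2.52 to the 75% mixture was the deepest among the barrier genes. Lce3c went from 9.14 to 7.31 (slope −1.70, adjusted p = 0.00748). The probe sets of 10 barrier genes, Lce1a1, Lce1d, Lce1h, Lce1i, Lce3c, Sprr2h, Lor, Ppl, Tgm1 and Dsc3, carry Affymetrix suffixes for probes that may match more than 1 transcript. Whether their signals include related transcripts was not tested.

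**Figure D2:**
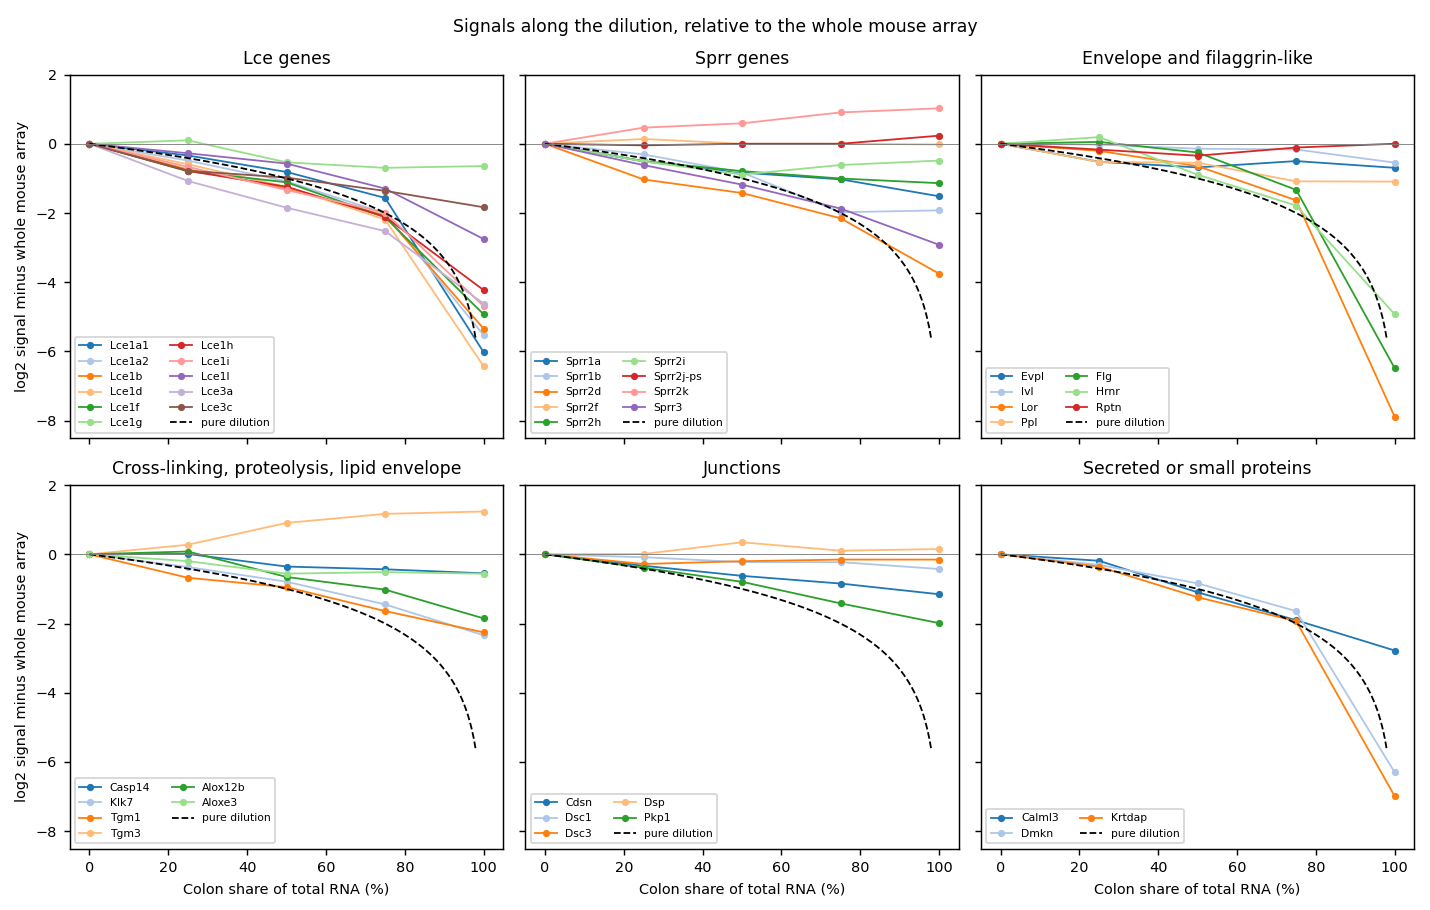
Log2 signal minus that of the whole mouse array (vertical axis) against the colon share of total RNA (horizontal axis, %), 1 line per gene and 1 array per point, in 6 groups by role. The dashed curve is the log2 of the whole mouse share, the course of a transcript that colon RNA does not contribute. Most Lce genes run along the curve to 75% colon, while Sprr2k and Tgm3 lie above 0 throughout.

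The small proline-rich proteins, flexible cross-bridges between envelope proteins, split within the family. Of 9 measured genes, 5 fell, 1 rose and 3 did not pass, with a median slope of −1.11. Sprr3 gave 9.06, 8.45, 7.88, 7.19 and 6.14 on the arrays. Sprr3, a protein also of oesophagus and mouth, fell by 2.84 log2 (SE 0.19, adjusted p = 0.00393) and had an ordered step at every array. Sprr2d had signals of 10.01, 8.98, 8.59, 7.86 and 6.26. It fell by 3.45 log2 (SE 0.36, adjusted p = 0.00791). The signals of Sprr2k were 7.01, 7.48, 7.60, 7.92 and 8.03. These signals rose at every step, with a slope of 0.99 (SE 0.14, adjusted p = 0.0134).

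Both Sprr1 genes fell from different starting points. Sprr1a gave 9.65, 9.14, 8.81, 8.62 and 8.13 on the arrays. These signals stepped down at every array, by unequal amounts, with a slope of −1.42 (SE 0.13, adjusted p = 0.00611). Sprr1b had signals of 6.38, 6.08, 5.55, 4.41 and 4.46. The 75% mixture and colon were its lowest arrays, at nearly the same level, and it fell by 2.21 log2 (SE 0.31, adjusted p = 0.0143). Sprr2h went from 8.16 to 7.02 (slope −1.11, adjusted p = 0.0139). Sprr2f stayed between 4.32 and 4.47, the pseudogene Sprr2j-ps between 3.26 and 3.54, and Sprr2i had its lowest signal, 4.88, at the 50% mixture (adjusted p = 0.431).

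Beside these, 2 probe sets were annotated to several Sprr genes at once and so belonged to no single one. Their signals were 12.09, 14.16, 14.34, 14.37 and 14.42 in one and 11.96, 14.37, 14.46, 14.52 and 14.55 in the other. Both jumped between whole mouse and 25% colon and then stayed near the top of the scale (adjusted p = 0.137 and 0.153). They were looked at after their values were seen.

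Loricrin, the chief filler of the envelope, had the most negative slope of the barrier genes and did not pass. The signals of Lor were 13.18, 12.98, 12.53, 11.55 and 5.29. The 4 arrays with whole mouse RNA lay within 1.63 of each other and colon lay 6.25 below the lowest of them. Its slope was −6.88, SE 2.15, adjusted p = 0.0865. Another probe set gave 12.29 and 5.92 at the ends, while the third stayed between 5.38 and 5.69 (slope −0.03).

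Of the other envelope proteins, 1 fell and 2 did not pass. Involucrin (Ivl), an early scaffold protein, ran from 5.50 down to 4.95 (slope −0.49, SE 0.14, adjusted p = 0.0753). Envoplakin (Evpl) had 9.42 and 8.73 (adjusted p = 0.164), with all 3 mixtures between 8.74 and 8.92. Periplakin (Ppl), its partner, showed a drop at 25% colon and another at 75%, through 8.88, 8.36, 8.34, 7.80 and 7.79. It fell by 1.10 log2 (SE 0.18, adjusted p = 0.0217).

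Filaggrin-like proteins bundle keratin and hold water in the dead cell layers. Flg gave 9.92, 9.97, 9.67, 8.58 and 3.43 on the arrays. As with Lor, the signals of Flg were close together up to the 50% mixture and then fell away steeply (slope −5.74, SE 1.84, adjusted p = 0.0925). Hrnr had signals of 8.54, 8.73, 7.65, 6.76 and 3.62. Hornerin (Hrnr) fell by 4.73 log2 (SE 1.04, adjusted p = 0.0387), with the 25% mixture slightly above whole mouse. Without the colon array its slope was −2.58. Repetin (Rptn) rested on the choice of probe set: the brightest stayed between 5.45 and 5.80 (slope 0.02, adjusted p = 0.953), whereas another had 6.71, 6.59, 5.70, 4.57 and 3.21 (slope −3.61, SE 0.44, adjusted p = 0.0102). In the median over its 3 probe sets the slope was −1.27 (adjusted p = 0.0277).

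Enzymes that cross-link and cut envelope proteins went both ways. Transglutaminase 1 (Tgm1) is the membrane-bound enzyme of the envelope. The signals of Tgm1 were 6.98, 6.30, 6.03, 5.34 and 4.72. It fell by 2.19 log2 (SE 0.15, adjusted p = 0.00393). Tgm3 gave 7.25, 7.53, 8.16, 8.42 and 8.49 on the arrays. Transglutaminase 3 (Tgm3), a cytosolic enzyme of skin and hair follicle, thus rose at each step, with a slope of 1.35 (SE 0.19, adjusted p = 0.0143). Signals of Tgm1 and Tgm3 ran in opposite order over the same 5 arrays.

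The proteases both fell. Klk7, a kallikrein of corneocyte shedding, gave 9.10, 8.73, 8.31, 7.65 and 6.76 and fell by 2.30 log2 (SE 0.22, adjusted p = 0.00650). Casp14, the caspase that processes filaggrin, changed far less. Its 5 signals lay between 6.34 and 6.90, with a slope of −0.62 (SE 0.13, adjusted p = 0.0337), and this call was lost whenever an array was left out.

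Of the 5 junction genes measured, 2 fell and 3 did not pass. Pkp1 had signals of 11.21, 10.82, 10.42, 9.79 and 9.22. Plakophilin 1 (Pkp1), a plaque protein of stratified epithelia, fell by 2.003 log2 (SE 0.13, adjusted p = 0.00393). The signals of Cdsn were 8.54, 8.21, 7.92, 7.70 and 7.39. Corneodesmosin (Cdsn), the glue of corneodesmosomes, fell by 1.13 log2 (SE 0.10, adjusted p = 0.00542). Desmoplakin (Dsp), which every desmosome uses, had 10.54, 10.55, 10.88, 10.64 and 10.69 (slope 0.16, SE 0.17, adjusted p = 0.591), and slopes of 0.65 and 0.82 in its other probe sets, neither past the threshold. The desmocollins of stratified epithelia, Dsc1 (3.94 to 4.36, adjusted p = 0.0544) and Dsc3 (5.06 to 5.34, adjusted p = 0.791) had low signals, and in colon both lay within the range of the bacterial control probe sets.

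The 12R-lipoxygenase gene Alox12b, whose product acts on barrier ceramides, had signals of 6.64, 6.72, 5.98, 5.62 and 4.79 and fell by 1.92 log2 (SE 0.28, adjusted p = 0.0157). Aloxe3, which takes the next step, had 7.76 in whole mouse and less in each mixture (slope −0.58, SE 0.16, adjusted p = 0.0642). The 3 secreted or small keratinocyte proteins had slopes of −6.22 to −2.91. Krtdap gave 11.08, 10.72, 9.84, 9.15 and 4.09 on the arrays. Krtdap, a secreted protein of differentiating keratinocytes, had a slope of −6.22, SE 1.60, adjusted p = 0.0556. Dmkn had signals of 12.74, 12.44, 11.91, 11.10 and 6.44. Dermokine (Dmkn), a secreted protein of upper epidermis, had a slope of −5.57, SE 1.53, adjusted p = 0.0643. Calml3, a calmodulin-like protein of epithelia, fell by 2.91 log2 (SE 0.25, adjusted p = 0.00574), from 8.94 to 6.16.

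The barrier genes with the largest differences were thus not those that passed most firmly. Of 19 that were at least 4-fold lower in colon, 14 fell and 5 did not pass (Lce1a1, Lor, Flg, Dmkn and Krtdap). Over all genes, 503 of 542 such genes (92.8%) fell, and genes at least 4-fold lower were 4.37% of all. A transcript present only in whole mouse bends downward on the log2 scale, since each mixture is expected at the log2 of its whole mouse share. On the linear intensity scale, where mixing is a straight line, 17 of the 19 passed, with adjusted p = 0.00984 for Lce1a1, 0.0152 for Lor, 0.00826 for Dmkn and 0.0102 for Krtdap. Flg and Lce3a did not, with 0.0536 and 0.0532. Over all 22626 probe sets, 1820 fell on the linear scale and 2456 on the log2 scale. How many of the 542 genes passed on the linear scale is not given here, so the 17 have no like background.

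Undiluted arrays gave a course for each mixture, the weighted mean of the 2 linear signals. For the 27 genes at least 2-fold lower in colon the median log2 deviation from it was −0.12, −0.17 and −0.17 at 25%, 50% and 75% colon, with SDs of 0.31, 0.31 and 0.32 over genes. For all 1284 such genes of the series it was −0.15, −0.22 and −0.14. Whether the barrier genes as a set depart from linear mixing was not tested. With the colon signal taken as 0, their medians became −0.07, 0.11 and 0.36, so the sign at 50% and 75% colon turned with that choice. Extremes were Lce3a, 0.90 below at 50% colon, and Flg, 0.73 above.

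A fit on the whole mouse share alone, without the colon array, shows how each gene diluted. A slope of −1 per halving is that of a transcript to which colon contributes nothing. Among the 19 genes at least 4-fold lower in colon it ran from −1.19 in Lce3a (SE 0.20) to −0.64 in Lce1l (SE 0.054). Lce1a2 (−0.998, SE 0.055), Krtdap (−0.993, SE 0.10), Sprr2d (−0.985, SE 0.17) and Lce1i (−0.967, SE 0.12) lay within 1 SE of −1. So did Lce1b (−0.991, SE 0.11), Lce1f (−0.995, SE 0.11), Lce1h (−0.9999, SE 0.11) and Hrnr (−1.002, SE 0.17). Calml3 (−1.002, SE 0.098), Sprr3 (−0.907, SE 0.096) and Lce3a did too, and Lce1d was steeper (−1.08, SE 0.071). Lor (−0.83, SE 0.073), Dmkn (−0.83, SE 0.051), Lce1a1 (−0.78, SE 0.050), Tgm1 (−0.76, SE 0.10), Klk7 (−0.71, SE 0.055) and Flg (−0.70, SE 0.14) diluted less steeply. A slope near −1 does not show that colon lacks the transcript, as Lce1i still had a signal of 8.03 there. Over all 41 genes 5 passed in this fit of 4 arrays, Lce1a1, Lce1a2, Lce1d, Sprr1b and Dmkn, each with an adjusted p of 0.0491. That p-value tests the slope against 0, not against −1. Over all 22626 probe sets, 152 fell and 0 rose in this fit. The median slope over the 19 genes at least 4-fold lower was −0.985, and −0.887 over all 542 such genes.

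**Figure D3:**
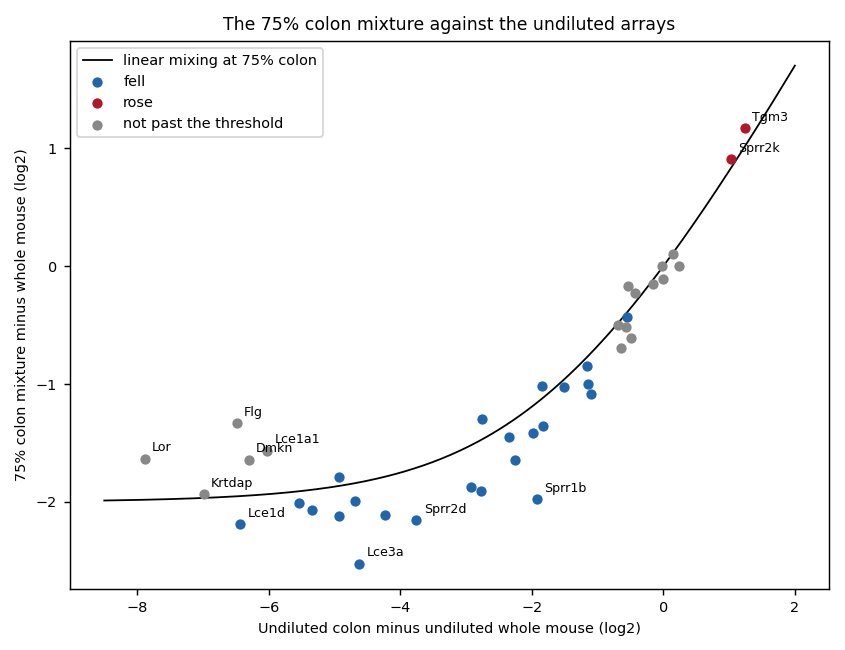
Log2 difference of the 75% colon mixture from whole mouse (vertical axis) against that of undiluted colon from whole mouse (horizontal axis), 1 point per gene, with the course of linear mixing as a line. Of the 23 falling genes 20 lie below the line, Lce3a among them, and Flg, which did not pass, lies above it. This count depends on the call, since a straight line on the log2 scale passes over genes that bend sharply. Without that call, 8 of the 27 barrier genes at least 2-fold lower in colon lie above linear mixing. Over the series 339 of 1284 such genes do.

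On chromosome 3, the RefSeq table lists 67 genes from Lor to Rptn, of which 28 were measured here, 25 of them barrier genes by the rule. Among those 25, 15 fell and 1 rose, with a median slope of −2.84, and of the 16 barrier genes elsewhere 8 fell and 1 rose, with a median of −1.11. This difference was not tested. Sprr2 genes stand next to one another, and the measured genes on either side of Sprr2k (0.99) were the pseudogene Sprr2j-ps (0.21, not past the threshold) and Sprr1b (−2.21). From Lce1a1 to Lce3c every measured gene had a negative slope. The 3 measured neighbours outside the rule all fell: Crct1 (slope −5.48, adjusted p = 0.0356), 2310050C09Rik (slope −4.55, adjusted p = 0.00915) and Smcp, a sperm mitochondrial protein (slope −1.16, adjusted p = 0.00628).

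**Figure D4:**
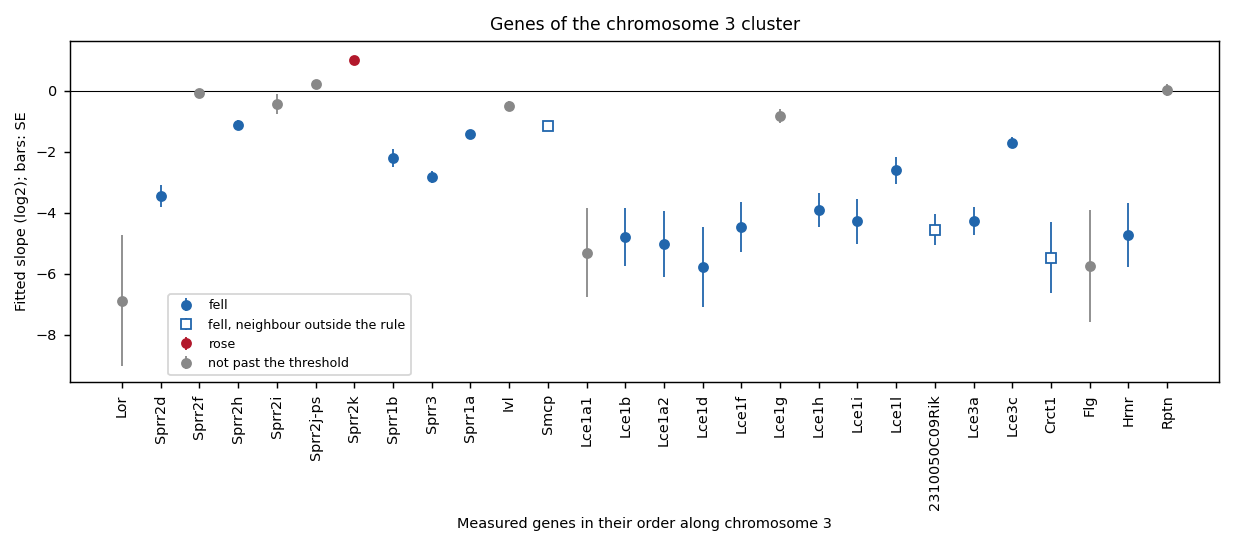
Fitted slope (vertical axis, log2, bars for standard error) of the 28 measured genes between Lor and Rptn, spaced evenly in their order along chromosome 3. Filled circles are the 25 barrier genes and open squares the 3 neighbours. Slopes are negative in all genes but Sprr2j-ps, Sprr2k and Rptn, and of these only Sprr2k passed.

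Other genes of barrier formation were counted from lists chosen by function. Among 18 measured regulators of epidermal differentiation, 6 fell and 1 rose, with a median slope of −0.72. On the undiluted arrays 8 were at least 2-fold lower in colon and 5 at least 2-fold higher, against 10.4% and 9.26% of all genes. The summed linear signal of the 18 in colon was 145% of whole mouse. Trp63, the master factor of stratified epithelium, fell by 2.95 (SE 0.40, adjusted p = 0.0130), with slopes up to 0.04 in its other probe sets. Grhl1, a grainyhead factor, fell by 2.09 (SE 0.42, adjusted p = 0.0312). The homeodomain protein Hopx lay between 10.85 and 11.50 (adjusted p = 0.146). The one that rose, Grhl2 (slope 1.27, adjusted p = 0.0274), is a grainyhead factor of simple epithelia too and was picked out after its value was seen. The lowest slope among its 4 probe sets was 0.08.

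Lipid enzymes of the barrier went both ways, with 4 of 14 falling and 3 rising and a median slope of 0.11. Elovl4, which makes the very long fatty acids of skin ceramides, fell by 1.67 (SE 0.20, adjusted p = 0.00999), and its other probe set had a slope of −3.43. Fa2h, a fatty acid hydroxylase, rose by 2.13 (SE 0.48, adjusted p = 0.0408), and the desaturase Degs2 had 8.41 and 11.01 at the ends (adjusted p = 0.0700). With centred arrays 6 lipid genes and 5 regulators rose.

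Of 21 proteases and inhibitors outside the rule, 6 fell and 3 rose, with a median slope of −0.43. Cystatin M (Cst6), an inhibitor of cathepsins in skin, fell by 3.28 (SE 0.18, adjusted p = 0.00373). The kallikrein Klk8 fell by 3.05 (SE 0.31, adjusted p = 0.00742), and the inhibitor Spint2 went from 10.02 to 13.12 (adjusted p = 0.0519). None of the 3 rises passed when any one array was left out.

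Among 10 further junction genes 1 fell and 3 rose, with a median slope of 0.49. The desmocollin of simple epithelia, Dsc2, rose by 2.34 (SE 0.47, adjusted p = 0.0310), from 6.72 to 9.38. Claudin 1 (Cldn1), a tight junction protein needed for the skin barrier, fell by 1.64 (SE 0.19, adjusted p = 0.00959), with a slope of 0.03 in the highest of its 4 probe sets. Perp, a desmosomal membrane protein, stayed between 10.47 and 11.03 (adjusted p = 0.154). The background for all 4 lists is the same 14.5% of genes that fell and 9.80% that rose.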

How the data were processed

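Each of the 5 arrays carried 1 mix of the 2 RNA pools, and samples were grouped by the colon share in their titles. The deposited table holds log2 signals that the authors made with RMA, per the submitters' processing notes; the version used was not given in the sources used here. Without detection calls, a low signal cannot be told from background: the colon signals of 13 barrier genes lay at or below 5.23, the highest of 27 bacterial control probe sets, which makes those folds inexact. These genes were Lce1d, Lce1l, Sprr1b, Sprr2f, Sprr2j-ps, Ivl, Flg, Hrnr, Tgm1, Dsc1, Dsc3, Alox12b and Krtdap. RMA tied values between arrays in 40.5% of probe sets. After 64 control probe sets were left out, 22626 were fitted with no filter on signal. The platform annotation gave 1 gene to 20380, several to 691 and none to 1555, and 20351 were matched to RefSeq (GRCm38.p6) by gene identifier.

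Slopes and 2-sided p-values came from limma 3.58.1 in R 4.3.3, with eBayes and 3 residual degrees of freedom. The fit was tested on simulated data. All barrier genes were named. From each other list the 2 largest slopes past the threshold and the brightest gene not past it were named, and exceptions are stated. The genes and lists were chosen with earlier results of these data known. Alternatives covered each array left out, centring, a filter at a mean of 6, moderation with a trend, linear intensity, the whole mouse share and gene medians. The number of arrays limits the precision.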

Additional observations from a re-analysis of the deposited data

How the results depend on the processing

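The direction of the 23 falls and 2 rises among barrier genes was kept in every alternative that gave the gene a value, and the sign turned only in genes that had not passed. With centred arrays the slope became 0.012 for Sprr2f and 0.012 for Dsc3. On the whole mouse share Rptn had −0.045, and −1.27 in its probe set median. Without single arrays, slopes ran from −0.89 to 0.14 for Sprr2i, from −0.15 to 0.17 for Dsc3 and from −0.20 to 0.30 for Rptn. The count of barrier genes that fell was 21 to 26 under centring, trend moderation, linear intensity and gene medians. Of all 22626 probe sets, 2325 fell under centring, 2615 under trend moderation and 1820 on linear intensity. With gene medians, where probe sets without a single gene were kept, 1902 of 14639 fell. The filter left 30 barrier genes, of which 24 fell, against 19 of the same 30 without it, and gave no value for Lce1l, Sprr1b, Tgm1 and Alox12b. Over all 14932 probe sets that it left, 2471 fell. On the whole mouse share, with 4 arrays, 5 barrier genes fell and 0 rose, and over all probe sets 152 fell and 0 rose. Centring raised the rises over all probe sets to 3148, those of regulators to 5 and those of lipid enzymes to 6. With the colon signal taken as 0, the median deviation at 75% colon was 0.36.

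Leaving out 1 array gave 10 to 16 falls and 0 to 2 rises among barrier genes, and 829 to 1692 falls and 168 to 1306 rises over all probe sets. Falls and rises ran from 1 to 4 and 0 to 1 for regulators, 1 to 3 and 0 to 3 for lipid enzymes, 3 to 5 and 0 to 0 for proteases, and 0 to 1 and 0 to 2 for junction genes. At an unadjusted p of 0.05 in the fit of all arrays, 32 barrier genes fell and 2 rose. The share of all genes past that looser threshold was not counted, so these counts have no background to be read against. Each mix had 1 array, so no spread between repeated arrays could be given.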
